A study of Mus musculus with 36 samples.

Results

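The mitochondrial ribosomal protein genes were followed through P-bodies, cytoplasm, polysomes and total RNA of mouse cells. Members were the genes whose symbol starts with Mrpl or Mrps followed by a digit, without the pseudogene symbols. This gave 78 members of 25239 genes in the P-body and cytoplasm table (49 Mrpl and 29 Mrps genes), 78 of 25229 in the polysome and total RNA table, and 77 of 48440 in the Ago2 KO table, where Mrpl58 is not found under that symbol. The members lie on 17 chromosomes, and every member had at least 10 reads in every library. Their transcripts were short, with a median of 1253 bases (418 to 7300) against 2876 bases over all genes tested in naive cells. For 15 members the exons overlap those of a neighbouring gene (Mrps7 with Gga3 and Mif4gd on the opposite strand, Mrps6 with Slc5a3 on its own strand), so their reads may be shared.

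Mitochondria keep a ribosome of their own, which translates the few mRNAs of the mitochondrial genome into core subunits of the respiratory chain. Nearly all of its proteins are encoded in the nucleus, made on cytosolic ribosomes and imported, so each of these mRNAs first has to meet the cytosolic translation machinery. Some members have a counterpart in the bacterial ribosome, such as Mrpl12 of the stalk that recruits translation factors and Mrps7 of the head of the small subunit, and others exist only in mitochondria. The symbol can mislead: Mrps18a and Mrps30 belong to the large subunit, and Mrps36 is a component of the 2-oxoglutarate dehydrogenase complex. P-bodies are cytoplasmic granules of untranslated mRNA and decay and repression factors, among them the helicase DDX6 and the scaffold LSM14A.

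In the P-body work, GFP-LSM14A, delivered by lentivirus, marked the granules, which were sorted from a cytoplasmic pellet and sequenced beside that pellet, with 2 libraries for each fraction of each condition. The conditions were naive ES cells of line v6.5 (2i and LIF), primed cells derived from them (activin A and bFGF), reprogrammable MEFs carrying a doxycycline-inducible OKSM cassette, the same system at reprogramming day 3 with a control or a Nudt21 shRNA, and naive Ago2 KO ES cells, which came from sorted single cells. In the polysome work, naive GFP-LSM14A ES cells of a line raised from single-cell clones carried the FKBP12 F36V degron at both Ddx6 alleles. These cells received dTAG-13 for a few hours or served as control, and all were given cycloheximide before harvest. There were 3 libraries each of polysome and total RNA. The study describes its sequencing replicates as biological, but the labels do not tie them to separate cultures or animals, and p-values measure the spread between these libraries. Library totals ran from 6769727 to 31185799 assigned reads, with the lowest in primed cytoplasm.

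The labels were set against the genes that could check them. Nudt21 was at 4.87 to 5.94 CPM (counts scaled to a common library size of 1000000, adjusted by TMM) in the 4 knockdown libraries and at 88.9 to 110 CPM in the 4 day 3 controls, and Ago2 was at 2.54 to 4.83 CPM in the 4 Ago2 KO libraries. The Ago2 KO table holds no wild-type libraries to set its Ago2 level beside. Ddx6 mRNA does not check a protein degron. In naive against primed cytoplasm 8 of 8 naive markers were called higher and 6 of 8 primed markers lower (22.1% and 21.6% of all genes). The 9 fibroblast markers summed to 29600 to 32600 CPM in MEF cytoplasm and to 9560 to 10000 CPM in MEF P-bodies, against at most 94.2 CPM in naive libraries. The 6 lung epithelium markers summed to 6.75 and 96.1 CPM in the MEF P-body libraries and all 6 were at 0 in MEF cytoplasm. The 5 macrophage markers ran from 7.1 to 33.3 CPM in MEF P-bodies and from 4.35 to 4.8 CPM in MEF cytoplasm. Of 4 tested, 2 were called higher in P-bodies, with the highest log2 fold change for Lyz2 (4.68), and the lowest value was -0.15. The source of these marker reads, and their part in the MEF values, was not tested.

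P-bodies and cytoplasm differed in how much of the family they held, and the direction was not the same in all cells. Summed over the 78 members, the level was 5104 and 5542 CPM in naive cytoplasm and 4547 and 4601 CPM in naive P-bodies, so the P-body libraries were lower. In primed cells the sums were 3809 and 3717 CPM in cytoplasm and 4023 and 3946 CPM in P-bodies. In MEFs they were 3534 and 3714 CPM in cytoplasm and 7821 and 7283 CPM in P-bodies, the widest separation in that table. At day 3 the control gave 4390 and 4511 CPM in cytoplasm against 5427 and 6317 CPM in P-bodies, and the Nudt21 knockdown 4161 and 4289 CPM against 5607 and 5395 CPM. The Ago2 KO table, made by another pipeline, gave 6130 and 3661 CPM in cytoplasm and 8148 and 6222 CPM in P-bodies, and the cytoplasm libraries lay far apart.

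**Figure D1:**
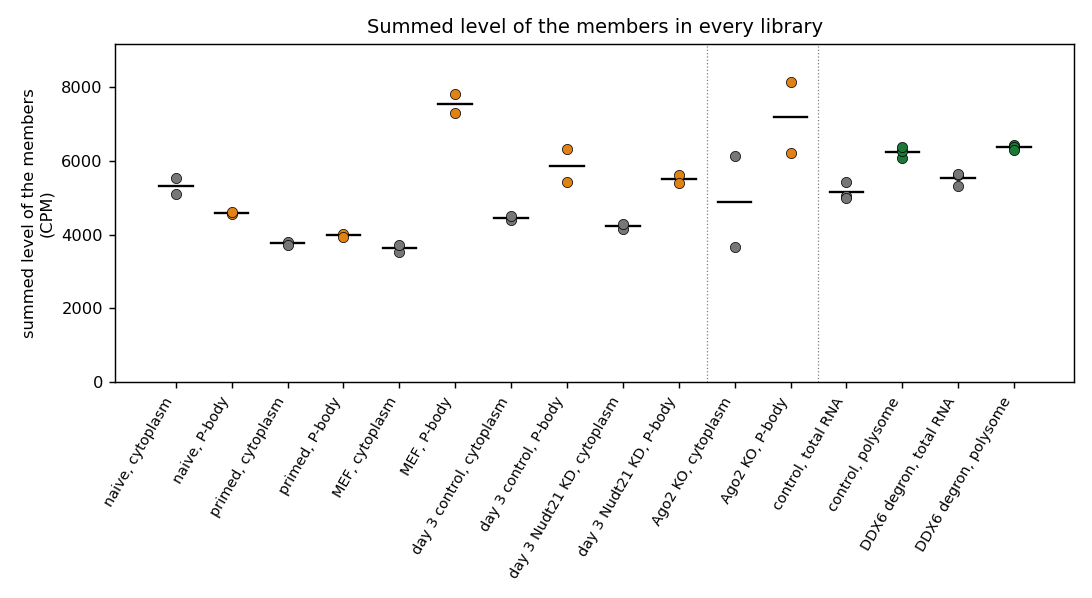
Summed level of the members (CPM, y axis) in every library, with a point for each library, a bar at each group mean, and dotted lines between the 3 separately scaled tables. MEF P-body libraries sit at 7821 and 7283 CPM, above the MEF cytoplasm libraries at 3534 and 3714 CPM.

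In MEFs nearly the whole family was higher in P-bodies. Of the 78 members, 70 were called higher (26.6% of all genes tested were) and 1 lower (28.7% of all genes), at an adjusted p under 0.05 in edgeR's quasi-likelihood test over all genes. The members' median log2 fold change was 1.15, against 0.03 over all genes tested. Every class took part: 27 of 30 large subunit proteins with a bacterial counterpart were called higher, 19 of 21 mitochondria-specific large subunit proteins, 14 of 16 small subunit proteins with a bacterial counterpart and 9 of 10 mitochondria-specific small subunit proteins.

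Mrpl52, a mitochondria-specific large subunit protein, had the highest fold. It was at 36.6 and 44.0 CPM in MEF cytoplasm and at 133 and 136 CPM in P-bodies, a log2 fold change of 1.78 (SE 0.12, edgeR adjusted p = 5.0e-06). Mrps6, a small subunit protein with a bacterial counterpart, went from 75.6 and 79.6 CPM to 251 and 255 CPM (log2 1.75, SE 0.09, edgeR adjusted p = 2.7e-06), but its exons overlap Slc5a3 on its own strand. Mrpl53, also specific to mitochondria, stood at 33.9 and 39.9 CPM in cytoplasm and at 125 and 109 CPM in P-bodies (log2 1.71, SE 0.12, edgeR adjusted p = 6.2e-06). In all of these the lower P-body library was above the higher cytoplasm library.

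Mrpl12 was at 92.7 and 107 CPM in MEF cytoplasm and at 249 and 220 CPM in P-bodies, a log2 fold change of 1.27 (SE 0.11, edgeR adjusted p = 1.3e-05). Mrps7 rose from 73.4 and 72.5 CPM to 115 and 119 CPM (log2 0.72, SE 0.09, edgeR adjusted p = 0.00015). Mrps2, whose product sits at the junction of head and body of the small subunit, went the other way. It was at 46.4 and 41.6 CPM in cytoplasm and at 33.0 and 24.7 CPM in P-bodies, a log2 fold change of -0.57 (SE 0.14, edgeR adjusted p = 0.0071), and its libraries did not overlap either, but it was not called without MEF cytoplasm replicate 1 or 2.

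**Figure D2:**
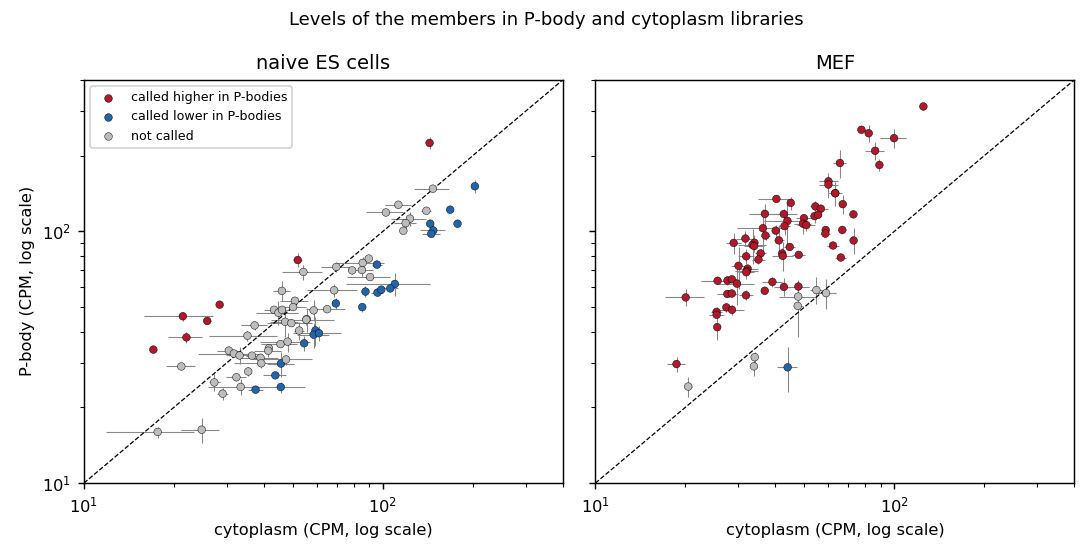
Mean level of each member in cytoplasm (x axis) and in P-bodies (y axis), both in CPM on log scales, with the SD over 2 libraries as error bars and equality as a dashed line, in naive ES cells (left) and MEFs (right). In MEFs 70 of 78 members are called higher in P-bodies and 1 lower, and in naive cells 7 are called higher and 22 lower.

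The MEF direction was shared by other abundant mRNAs of ribosomes and mitochondria. All 79 cytosolic ribosomal protein genes tested were called higher, with a median of 1.38 and a highest value of 1.80 (Rpl36al), as were 75 of 80 nuclear-encoded respiratory chain subunits (median 1.33, 2 lower, from 1.90 for Atp5k to -0.83 for Sdha). Within mitochondrial translation, 4 of 5 mitoribosomal proteins without an Mrp name were higher, led by Chchd1 at 1.86, while Ptcd3 was lower at -0.36. Of 11 translation factors 8 were higher and 2 lower (Mrrf 0.71, Gfm1 -0.51). Of 24 assembly factors 12 were higher and 1 lower (Malsu1 1.55, Dhx30 -0.86). Of 17 mitochondrial aminoacyl-tRNA synthetases 6 were higher and 5 lower (Lars2 0.91, Iars2 -1.05).

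Transcript length moved with the MEF fold change. Across the 78 members Spearman's rho between length and the log2 fold change was -0.56, and across all genes with a length it was -0.49. These are descriptions across genes that share the same libraries. Genes within the interquartile range of the members' lengths (919 to 2537 bases, 5418 genes) had a median log2 fold change of 0.45, and 41.7% of them were called higher. When their interquartile range of base composition was required too (46.9 to 54.0% G and C, 1992 genes), the median was 0.39 and 39.8% were called higher. The part of length in the result was not tested.

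**Figure D3:**
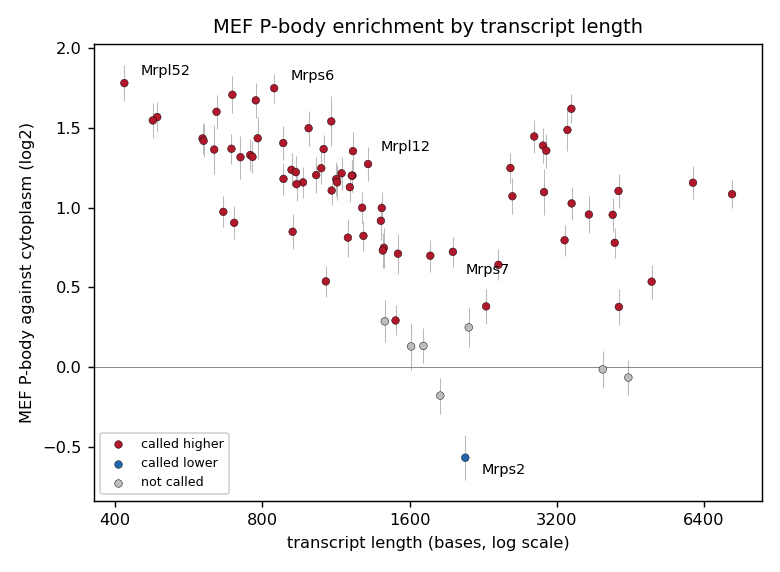
Log2 fold change of each member between MEF P-bodies and cytoplasm (y axis, error bars SE) against the length of its longest RefSeq-matched transcript (x axis, bases, log scale). Mrpl52, the shortest at 418 bases, has the highest fold (1.78), and Mrps2 is the only member called lower (-0.57).

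In naive ES cells the family leaned the other way. Of 78 members 7 were called higher in P-bodies (22.6% of all genes were) and 22 lower (15.4% of all genes). The median log2 fold change was -0.28 against -0.06 over all genes, and 22 members had a value above 0. Genes within the interquartile range of the members' lengths (5411 genes) had a median of -0.19, with 13.3% called higher and 16.8% lower. When their range of base composition was required too (2039 genes), the median was -0.10, with 10.2% higher and 11.9% lower. The part of length and composition was not tested. With library totals in place of TMM scaling, 6 members were higher and 43 lower, and the median over all genes itself stood at -0.28. The share of all genes called is not given for this setting or without single libraries. Leaving out naive P-body replicate 1 or replicate 2 left 0 called, leaving out naive cytoplasm replicate 1 gave 62 (12 higher, 50 lower) and leaving out its replicate 2 gave 51 (16 higher, 35 lower), while the median stayed between -0.35 and -0.17.

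The naive members called lower included Mrpl36, one of the smallest large subunit proteins, at 38.8 and 52.2 CPM in cytoplasm and 24.9 and 23.2 CPM in P-bodies (log2 -0.92, SE 0.18, edgeR adjusted p = 0.014). Mrpl10, which anchors the stalk that carries Mrpl12, was at 110 and 102 CPM in cytoplasm and 60.2 and 58.5 CPM in P-bodies (log2 -0.84, SE 0.11, edgeR adjusted p = 0.0031). Mrps24, in the head of the small subunit, was at 85.3 and 134 CPM and at 57.3 and 66.3 CPM (log2 -0.83, SE 0.23, edgeR adjusted p = 0.041). None of these groups overlapped, although the 2 cytoplasm libraries differed widely for Mrps24.

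Mrpl47, Mrpl32 and Mrpl1 were higher in naive P-bodies. Mrpl47 was at 17.5 and 25.3 CPM in cytoplasm and 44.6 and 47.4 CPM in P-bodies (log2 1.10, SE 0.20, edgeR adjusted p = 0.011), but its exons overlap Actl6a and Ndufb5 on the opposite strand. Mrpl32, whose product is processed by the m-AAA protease before it joins the ribosome, was at 16.8 and 17.4 CPM in cytoplasm and 34.1 and 33.7 CPM in P-bodies (log2 0.99, SE 0.13, edgeR adjusted p = 0.0038). Mrpl1, of the stalk beside the exit site, was at 27.9 and 28.9 CPM and at 51.8 and 50.4 CPM (log2 0.85, SE 0.12, edgeR adjusted p = 0.0041). The levels of Mrpl12 (log2 0.18, SE 0.11) and Mrps7 (-0.17, SE 0.10) were not called different, at edgeR adjusted p = 0.26 and 0.24.

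The neighbouring pathways in naive cells also held more genes called lower than higher where ribosomal proteins or the respiratory chain were concerned. Of 79 cytosolic ribosomal protein genes 42 were lower and 0 higher (median -0.43), and of 81 respiratory chain subunits 43 were lower and 1 higher (median -0.51, Cox8a -1.36, Atp5pb 0.35). Translation factors gave 1 higher of 11 (Mtif2, 1.31) and none lower. Assembly factors gave 3 higher and 3 lower of 24 (Gtpbp10 1.48, Mpv17l2 -1.14), and tRNA synthetases 1 higher and 3 lower of 17 (Wars2 0.84, Lars2 -0.89). Of the 5 mitoribosomal proteins without an Mrp name Ptcd3 was higher (0.41) and 2 were lower, with Gadd45gip1 lowest at -0.81.

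In primed cells the members were split. Of 78, 18 were called higher in P-bodies and 8 lower, or 23.1% and 10.3% of the members, where 26.5% and 24.2% of all genes were, and the median was 0.05 against 0.00 over all genes. DESeq2 called 11 higher and 4 lower, and a fit over all groups of that table called 9 higher and 1 lower. Leaving out primed P-body replicate 1 or 2 reduced the count to 16 or 14. Mrps28, a small subunit protein, was at 44.7 and 37.6 CPM in primed cytoplasm and 83.0 and 84.2 CPM in P-bodies, a log2 fold change of 1.01 (SE 0.09, edgeR adjusted p = 2.1e-06). Mrpl47 (0.72, SE 0.11) and Mrps21 (0.58, SE 0.11), a small subunit protein, followed.

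Mrpl36 was the lowest called member in primed cells too, at 23.3 and 30.0 CPM in cytoplasm and 19.2 and 19.8 CPM in P-bodies (log2 -0.48, SE 0.13, edgeR adjusted p = 0.0094), followed by Mrpl38 (-0.41, SE 0.08) and Mrpl57 (-0.30, SE 0.09), both specific to mitochondria. Mrpl12 was called lower by a small margin, from 105 and 98.4 CPM to 85.6 and 92.8 CPM (log2 -0.21, SE 0.08, edgeR adjusted p = 0.038), a call that DESeq2, the unfiltered fit and the fit over all groups did not make (adjusted p = 0.097, 0.061 and 0.29). Mrps7 (-0.13, SE 0.09) was not called, at edgeR adjusted p = 0.22. Around the family, 2 of 5 other mitoribosomal proteins were higher and 2 lower (Dap3 0.28, Ptcd3 -0.39), 3 of 11 translation factors higher and 4 lower (Mtrf1 0.78, Gfm2 -0.77), 4 of 24 assembly factors higher and 6 lower (Mterf3 0.64, Noa1 -0.91) and 2 of 17 synthetases higher and 7 lower (Wars2 0.67, Vars2 -1.46). Cytosolic ribosomal proteins gave 6 higher and 40 lower of 79 (Rps27 0.37, Rplp0 -0.67).

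The difference in P-body enrichment between naive and primed cells was tested as an interaction. It was lower in naive cells for 30 members and higher for 1, where 11.4% and 13.9% of all genes were, with a median log2 difference of -0.49 against -0.04 over all genes. Genes within the interquartile range of the members' lengths (5978 genes) had a median of -0.27, with 16.4% called lower and 5.5% higher. The part of length was not tested. Among the members Mrps28 had the lowest value (-1.10, SE 0.17, edgeR adjusted p = 0.0022). In naive cells its levels were 64.4 and 75.3 CPM in cytoplasm and 74.5 and 69.9 CPM in P-bodies, which overlap, whereas the primed fractions did not. Mrps36 (-1.01, SE 0.23) and Mrpl23 (-0.92, SE 0.15), near the exit of the peptide tunnel, came next, and Mrps27, an RNA-binding small subunit protein, was the 1 member with a higher value (0.46, SE 0.14, edgeR adjusted p = 0.039). Mrpl12 (0.25) and Mrps7 (-0.18) were not called, at edgeR adjusted p = 0.25 and 0.36. The count of 31 fell to between 5 and 17 without naive P-body, primed P-body or primed cytoplasm replicate 1 or 2, rose to 52 without naive cytoplasm replicate 1, and was 17 in the fit over all groups and 21 in DESeq2. Of 79 cytosolic ribosomal proteins 36 were lower by the same test.

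At reprogramming day 3 the fractions of the control differed in direction for nearly all members but not past the threshold. Of 78 members 76 had a value above 0, with a median log2 fold change of 0.48, and both P-body libraries lay above both cytoplasm libraries for 72, as they did for 26.5% of all genes. By edgeR's quasi-likelihood test 0 members were called, in a comparison that called 0.646% of all genes, while 54 members were higher at an unadjusted p under 0.05 (11.8% of all genes were) and DESeq2 called 31 higher (5.95% of all genes). The P-body libraries differed from each other, and without replicate 1 of them 70 members were called higher and 1 lower (median 0.66), without replicate 2 49 were higher (median 0.28). The replicate block gave 3, the unfiltered fit 25 and the fit over all groups 51. The share of all genes called is not given for these settings or without single libraries. Mrpl12 was at 125 and 133 CPM in cytoplasm and 193 and 196 CPM in P-bodies (log2 0.64, SE 0.12, edgeR adjusted p = 0.06), and Mrps7 at 87.1 and 86.4 CPM and 106 and 117 CPM (log2 0.42, SE 0.13, edgeR adjusted p = 0.14).

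With Nudt21, a subunit of the complex that guides the choice of polyadenylation sites, knocked down at day 3, 45 members were called higher in P-bodies and 0 lower, where 9.04% and 12.8% of all genes were. The median was 0.39 and 77 members were above 0. Mrpl47 was at 21.2 and 22.9 CPM in cytoplasm and 40.9 and 37.4 CPM in P-bodies (log2 0.81, SE 0.13, edgeR adjusted p = 0.0020), Mrpl41, specific to mitochondria, at 23.7 and 23.2 CPM and 38.2 and 35.8 CPM (0.64, SE 0.12, edgeR adjusted p = 0.0050), and Mrpl35 at 30.1 and 30.0 CPM and 51.6 and 42.5 CPM (0.63, SE 0.13, edgeR adjusted p = 0.0075). Their fractions did not overlap. Mrpl12 (0.47, SE 0.11) and Mrps7 (0.36, SE 0.10) were called higher as well, at edgeR adjusted p = 0.011 and 0.024. Leaving out cytoplasm replicate 1 or 2 left 3 or 5 of the calls.

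In the same knockdown, 55 of 79 cytosolic ribosomal proteins were higher (median 0.41, highest Rpl21 at 0.67), as were 3 of 5 other mitoribosomal proteins (Chchd1 0.53) and 4 of 24 assembly factors (Mrm3 0.57). None of 11 translation factors was called, and 1 of 17 synthetases was lower (Vars2, -0.43). A difference between knockdown and control enrichment was called for 0 of 78 members by edgeR (1 at an unadjusted p under 0.05, as were 4.83% of all genes) and 0 by DESeq2, in a test that called 0.0118% of all genes. The log2 difference of the members had a median of -0.05 and ran from -0.54 to 0.47, and without day 3 control P-body replicate 1 it was called for 9 members.

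The log2 difference between P-bodies and cytoplasm was smaller at day 3 than in MEFs for a share of the members. The interaction was negative for 27 members (5.13% of all genes were called lower) and positive for 0 (9.59% of all genes), with a median log2 difference of -0.62 against 0.00 over all genes. Genes within the interquartile range of the members' lengths (5974 genes) had a median of -0.25, with 7.55% called lower and 2.78% higher. The part of length was not tested. Among the members Mrps6, whose exons overlap Slc5a3, had the lowest value, -1.49 (SE 0.17, edgeR adjusted p = 0.00095). Its day 3 levels were 75.4 and 76.1 CPM in cytoplasm and 80.2 and 89.8 CPM in P-bodies, against 251 and 255 CPM in MEF P-bodies. Mrpl51 (-1.0, SE 0.21) and Mrpl24 (-0.93, SE 0.21) followed, and Mrpl12 was called as well (-0.59, SE 0.16, edgeR adjusted p = 0.037), while Mrps7 was not (-0.27, SE 0.17, edgeR adjusted p = 0.32). The count depended on single libraries. It was 1 to 9 without either MEF P-body, MEF cytoplasm or day 3 control cytoplasm library, 45 or 62 without day 3 control P-body replicate 1 or 2, and 43 in DESeq2, and in all of these every call was lower. Of 79 cytosolic ribosomal proteins 26 were lower by this test.

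In the Ago2 KO libraries 2 members were called higher and 0 lower, in a comparison that called 5.47% of all genes higher and 1.05% lower. Of 77 members 72 had a value above 0 (median 0.41), as did 8791 of all 16808 genes tested (median 0.04). Mrpl32 was at 44.2 and 25.2 CPM in cytoplasm and 114 and 101 CPM in P-bodies (log2 1.62, SE 0.31, edgeR adjusted p = 0.017), and Mrpl1 at 53.2 and 30.7 CPM and 99.6 and 92.2 CPM (log2 1.19, SE 0.30, edgeR adjusted p = 0.048). The cytoplasm libraries stood apart, and same-numbered libraries deviated together (correlation 0.60), which the main test does not take into account. For the settings that follow, the share of all genes called is not given. Without cytoplasm replicate 1, 43 members were called higher, without P-body replicate 1 none was, DESeq2 called 6, the unfiltered fit 12 and the replicate block 28. Mrpl12 (0.50, SE 0.30) and Mrps7 (0.07, SE 0.25) were not called, at edgeR adjusted p = 0.34 and 0.90.

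This table also lists the mitochondrial genome, whose mRNAs are what the mitoribosome translates. Of its 13 mRNAs 5 were called higher in P-body libraries (median 0.85, mt-Atp6 highest of those called at 1.86) and none lower, and neither of its 2 ribosomal RNAs was called (-1.62 and -0.08). That list was chosen after the values were seen. Of 79 cytosolic ribosomal proteins none was called (median 0.50), and of 21 assembly factors only Gtpbp10 was, at 0.96. No mitoribosomal protein without an Mrp name, translation factor or synthetase was called.

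**Figure D4:**
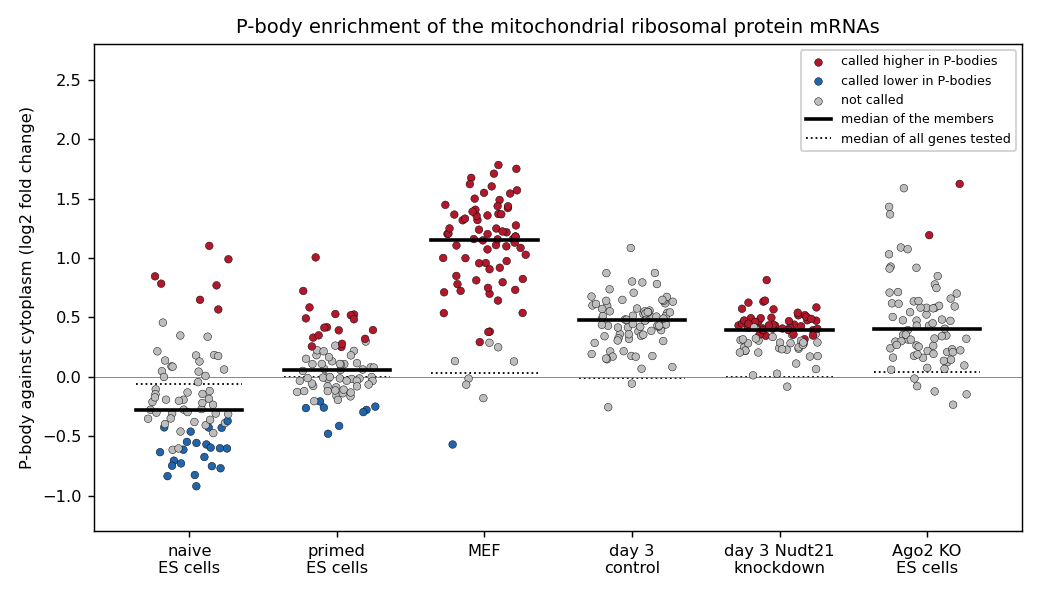
Log2 fold change of each member between P-bodies and cytoplasm (y axis) in the 6 conditions (x axis), with a point for each member coloured by its call, a thick bar at the members' median and a dotted bar at the median of all genes tested. The members' medians are -0.28 in naive cells, 0.05 in primed cells, 1.15 in MEFs, 0.48 in the day 3 control, 0.39 in the day 3 knockdown and 0.41 in Ago2 KO cells.

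Across the 6 comparisons, which hold separate libraries, single members differed in how often they were called. Mrpl1 was called higher in 5 of the 6 (naive 0.85, primed 0.33, MEF 1.03, Nudt21 knockdown 0.57, Ago2 KO 1.19) and stood at 0.34 in the day 3 control. Mrpl16, Mrpl32 and Mrpl47 were called higher in 4. The single comparisons called from 0.196% (day 3 control) to 26.6% (MEFs) of all genes higher. The share of all genes with as many calls is not given, so these members cannot be set against it. In contrast, 23 members were called higher in at least 1 comparison and lower in another, as were 21.3% of the 13298 genes tested in all the comparisons of the P-body table. Among these members 20 were lower in naive cells and higher in MEFs, as were 4.59% of those genes. No member was lower in naive and higher in primed cells, and 4 were lower in both, counts for which the share of all genes is not given either. Mrpl36 and Mrpl57 were lower in naive and primed cells and higher in MEFs and in the Nudt21 knockdown, with values for Mrpl57 of -0.77, -0.30, 1.45 and 0.43.

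The Mrps18 family, 3 paralogues that share a bacterial ancestor protein and occupy different places, differed in which comparisons called them. No test between the paralogues was run. Mrps18c, the copy at the ancestral place in the small subunit, was called higher in primed cells (0.48), MEFs (1.37) and the knockdown (0.50). Mrps18a, in the large subunit, was called higher in MEFs (1.18) and the knockdown (0.35). In naive cells it stood at -0.38 and was not called (SE 0.12, edgeR adjusted p = 0.061). Mrps18b, at another place in the small subunit, was at 176 and 179 CPM in naive cytoplasm and 108 and 106 CPM in naive P-bodies and was called lower there (-0.73, SE 0.09, edgeR adjusted p = 0.0033). In MEFs it was at 60.3 and 64.4 CPM in cytoplasm and 88.0 and 87.6 CPM in P-bodies and was called higher (0.54).

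The cytoplasmic level of the family differed between cell types, in comparisons that use the same cytoplasm libraries as those above. In naive against primed cytoplasm 36 members were called higher and 0 lower, where 22.1% and 21.6% of all genes were, with a median log2 difference of 0.41. Library totals in place of TMM scaling gave 22 higher and 4 lower and put the median of all genes at -0.20. Without primed cytoplasm replicate 1 or 2, 3 or 7 members were called. Mrps18b led, at 49.2 and 55.1 CPM in primed and 176 and 179 CPM in naive cytoplasm (log2 1.76, SE 0.12, edgeR adjusted p = 0.00040). Mrps2 followed, at 56.9 and 66.8 CPM and 146 and 142 CPM (1.20, SE 0.13), then Mrpl14 (1.19, SE 0.16). Mrps7 was higher by 0.42 (SE 0.12, edgeR adjusted p = 0.034), a call lost in DESeq2 (adjusted p = 0.076), and Mrpl12 was not called (0.14, edgeR adjusted p = 0.42). By list, 51 of 81 respiratory chain subunits were higher and 2 lower (Cox7a1 2.60, Cox8c -3.09), 11 of 24 assembly factors higher and 1 lower (Mpv17l2 1.65, Gtpbp10 -0.96) and 14 of 79 cytosolic ribosomal proteins higher (Rpl18 0.92).

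In naive against MEF cytoplasm 43 members were higher and 11 lower, in a comparison that called 36.0% and 35.9% of all genes (median of the members 0.51). Without MEF cytoplasm replicate 1 or 2, 31 or 29 were called, and library totals gave 51 higher and 7 lower with the median of all genes at 0.24. Mrps5, a small subunit protein with a bacterial counterpart, was at 34.2 and 34.0 CPM in MEFs and 136 and 143 CPM in naive cells (log2 2.03, SE 0.11, edgeR adjusted p = 7.5e-05). Mrpl2, close to the peptidyl transferase centre, was at 42.2 and 40.0 CPM and 170 and 166 CPM (2.03, SE 0.10), and Mrps2 was higher by 1.71 (SE 0.11). Mrps6, whose exons overlap Slc5a3, was the lowest, at 75.6 and 79.6 CPM in MEFs and 22.2 and 27.3 CPM in naive cells (-1.65, SE 0.15, edgeR adjusted p = 0.00038), followed by Mrps21 (-1.09, SE 0.14) and Mrpl50 (-0.88, SE 0.15). Mrpl12 (0.17) and Mrps7 (0.11) were not called, at edgeR adjusted p = 0.28 and 0.36. Cell type and medium cannot be told apart here.

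At day 3 of reprogramming 51 members were higher in control than in MEF cytoplasm and 5 lower, where 35.5% and 33.7% of all genes were (median of the members 0.35). Library totals gave 59 and 1, with the median of all genes at 0.20. In these bulk libraries a change in the share of cells of a type and a change in RNA per cell cannot be told apart, and the 9 fibroblast markers fell from 29600 to 32600 CPM in MEF to 4890 to 5080 CPM in day 3 cytoplasm. The 3 highest belong to the small subunit and are specific to mitochondria: Mrps35 (24.6 and 26.2 CPM in MEFs, 44.2 and 50.4 CPM at day 3, log2 0.95, SE 0.10, edgeR adjusted p = 3.1e-07), Mrps27 (0.91, SE 0.08) and Mrps34 (0.90, SE 0.09). Mrpl12 (0.43, SE 0.08, edgeR adjusted p = 0.00011) and Mrps7 (0.31, SE 0.07, edgeR adjusted p = 0.00081) were higher too. Mrpl53 was the lowest, at 33.9 and 39.9 CPM in MEFs and 22.1 and 25.2 CPM at day 3 (-0.58, SE 0.11), followed by Mrps18c (-0.37) and Mrpl32 (-0.36), both of which lost the call with library totals (adjusted p = 0.11 and 0.15). By list, 13 of 17 synthetases were higher and 1 lower (Pars2 1.43, Wars2 -0.47), 14 of 24 assembly factors were higher (Rbfa 1.47), 5 of 11 translation factors were higher (Tsfm 0.66), and 61 of 79 cytosolic ribosomal proteins were higher and 4 lower (Rpl30 1.05, Rpl34 -0.34).

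Nudt21 knockdown against control cytoplasm at day 3 gave 10 members higher and 24 lower, or 12.8% and 30.8% of the members where 24.6% and 25.0% of all genes were called (median of the members -0.09). The fit over all groups called 1 higher and 11 lower. Markers moved too: the 4 pluripotency markers summed to 705 to 800 CPM in knockdown and 320 to 331 CPM in control cytoplasm, the 9 fibroblast markers to 1600 to 1620 and 4890 to 5080 CPM, and the 5 macrophage markers to 99.0 to 104 and 11.9 to 15.9 CPM. Of the macrophage markers 3 were tested, and only Cd68 had a value above 0 (log2 2.96, median of the 3 -1.16). Of the naive markers 6 were tested, with 2 called higher and 1 lower (Zfp42 2.93, Nanog -3.77, median -0.14). The pluripotency list includes Pou5f1 and Sox2, which the OKSM cassette encodes too, and reads of the cassette were not told apart. The part of these markers' cells in the result was not tested. Mrpl20, which helps to fold the large subunit RNA in bacteria, was the lowest, at 83.6 and 82.7 CPM in control and 41.9 and 47.1 CPM in knockdown cytoplasm (log2 -0.90, SE 0.09, edgeR adjusted p = 1.7e-07). Mrpl50 (-0.72, SE 0.11) and Mrps33 (-0.66, SE 0.11) were next. Mrpl53 (0.43, SE 0.13), Mrps31 (0.43, SE 0.11) and Mrpl1 (0.42, SE 0.10) were the highest, and the first 2 lost the call in the fit over all groups (adjusted p = 0.086 and 0.056). Mrpl12 rose by 0.26 (SE 0.07, edgeR adjusted p = 0.0066; 0.12 in the fit over all groups), and Mrps7 was not called (-0.04, edgeR adjusted p = 0.70). Of 80 respiratory chain subunits 38 were lower and none higher (Ndufs3 -0.85).

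Promoters are shown for some members with wide cytoplasmic differences between cell types, and for Mrpl12. The cytoplasm libraries come from a pellet, so a difference in mRNA level and one in what pellets cannot be told apart. The part of promoters in these differences was not tested. RefSeq promoters on GRCm38.p6, windows of 300 bases around the start, were found for 69 of 78 members. On both strands, the NRF1 motif GCGCATGCG was in 10.1% of the members' promoters and in 1.8% of all 27025 promoters, the ETS core CCGGAAG bound by GABP in 36.2% and 9.1%, and the YY1 core AAGATGG in 18.8% and 6.5%. The E-box CACGTG was in 7.2% of both, and CCAAT in 39.1% and 37.9%. All promoters were not matched to those of the members in base composition or expression. Overlapping matches were counted once per promoter, and a match is a description of letters, not of binding. In the sequences below, read 5′ to 3′ on the gene's strand, capitals mark these letters. Mrps18b (chr17:35916391-35916690, minus strand), the member with the widest naive to primed difference, holds NRF1 and ETS letters. Mrpl2 (chr17:46645971-46646270, plus strand), among the highest in naive against MEF cytoplasm, holds an E-box and CCAAT on the opposite strand. Mrps5, the highest in that comparison, is not shown. Mrps6 (chr16:92058086-92058385, plus strand), the lowest there, and Mrpl12 (chr11:120484387-120484686, plus strand), which differed little, hold none of the 5 motifs in this window.
Mrps18b: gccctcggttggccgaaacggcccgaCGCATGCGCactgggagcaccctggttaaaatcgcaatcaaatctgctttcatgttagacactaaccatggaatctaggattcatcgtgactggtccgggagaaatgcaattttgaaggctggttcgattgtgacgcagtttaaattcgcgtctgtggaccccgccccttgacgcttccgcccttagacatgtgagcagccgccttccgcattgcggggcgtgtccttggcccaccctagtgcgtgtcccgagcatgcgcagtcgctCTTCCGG
Mrpl2: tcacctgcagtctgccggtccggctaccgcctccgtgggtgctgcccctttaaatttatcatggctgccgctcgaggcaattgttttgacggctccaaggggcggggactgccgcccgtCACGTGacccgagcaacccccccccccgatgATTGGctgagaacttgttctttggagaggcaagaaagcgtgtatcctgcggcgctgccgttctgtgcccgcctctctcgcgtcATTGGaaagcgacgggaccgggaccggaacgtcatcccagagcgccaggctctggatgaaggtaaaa
Mrps6: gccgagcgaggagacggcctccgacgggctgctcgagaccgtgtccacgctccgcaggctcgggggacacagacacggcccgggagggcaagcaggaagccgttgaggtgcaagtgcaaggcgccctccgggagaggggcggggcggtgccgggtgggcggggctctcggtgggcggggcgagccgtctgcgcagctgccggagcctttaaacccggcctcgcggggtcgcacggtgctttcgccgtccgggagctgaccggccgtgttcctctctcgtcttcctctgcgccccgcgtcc
Mrpl12: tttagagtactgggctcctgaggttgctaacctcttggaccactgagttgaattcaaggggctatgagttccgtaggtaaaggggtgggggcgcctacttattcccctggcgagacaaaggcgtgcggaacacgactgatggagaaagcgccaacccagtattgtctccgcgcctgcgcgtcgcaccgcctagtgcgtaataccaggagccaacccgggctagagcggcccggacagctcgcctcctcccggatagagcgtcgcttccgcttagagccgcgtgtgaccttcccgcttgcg

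Polysome profiling in naive ES cells showed that most members were more abundant in polysome than in total RNA. In the control 55 were called higher and 3 lower, where 18.8% and 24.1% of all genes were, with a median log2 value of 0.31 against 0.02 over all genes. Library totals in place of TMM put 71 higher and 0 lower and moved the median of all genes to 0.19. Mrps36 had the highest value, at 42.3, 39.0 and 41.6 CPM in total RNA and 60.6, 65.1 and 62.3 CPM in polysomes (log2 0.61, SE 0.07, edgeR adjusted p = 1.4e-06). Mrps33 (0.61, SE 0.09) and Mrpl42 (0.58, SE 0.08), specific to mitochondria, came next. Mrpl12 was at 126, 123 and 158 CPM in total RNA and 161, 169 and 176 CPM in polysomes (0.31, SE 0.09, edgeR adjusted p = 0.0086), and Mrps7 at 77.4, 83.2 and 84.8 CPM and 96.6, 103 and 99.2 CPM (0.28, SE 0.06, edgeR adjusted p = 0.0020). Polysome libraries lay above total RNA libraries for each of these.

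The 3 members called lower in polysomes were all small subunit genes: Mrps27 (log2 -0.23, SE 0.07), Mrps31 (-0.21, SE 0.07) and Mrps5 (-0.15, SE 0.06), at edgeR adjusted p = 0.013, 0.027 and 0.048. None of these 3 was called lower with library totals, or without control polysome replicate 1 or 2. Mrps5 was past the threshold by a small margin, was not called by DESeq2 (adjusted p = 0.052) and stood at 0.02 with library totals. Transcript length and this ratio had a rho of -0.45 over the members and -0.39 over all genes. Genes within the members' interquartile range of length had a median of 0.14, and 24.3% of them were called higher. Of 79 cytosolic ribosomal proteins 40 were higher (median 0.19, Rps27 0.84), and of 81 respiratory chain subunits 62 were higher and 8 lower (median 0.42, Ndufa1 0.64, Ndufs1 -1.79). Translation factors (2 higher, 3 lower of 11, Mtrf1l 0.31 and Gfm1 -1.29), assembly factors (3 and 2 of 24, Malsu1 0.40 and Dhx30 -0.91) and synthetases (3 and 7 of 17, Wars2 0.30 and Lars2 -1.13) were mixed.

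After DDX6 degradation 53 members were higher in polysome than in total RNA and 4 lower (24.0% and 26.8% of all genes), with a median of 0.23 against 0.02 over all genes. With library totals 71 were higher and 0 lower, and the median of all genes was 0.21. All 53 were also called higher in the control, and the 3 control members called lower were lower here too, joined by Mrpl44 (-0.17). The share of all genes called in both is not given, so these counts cannot be set against it. Mrps36 was again highest, at 48.2, 47.8 and 45.8 CPM in total RNA and 68.2, 69.5 and 68.6 CPM in polysomes (0.54, SE 0.05, edgeR adjusted p = 5.7e-09), followed by Mrpl42 (0.49) and Mrps33 (0.48). Mrps31 (-0.25), Mrps27 (-0.24) and Mrps5 (-0.23), each with an SE of 0.05 to 0.06, were the lowest. Mrpl12 (0.23) and Mrps7 (0.22) were both higher, each with an SE of 0.05.

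**Figure D5:**
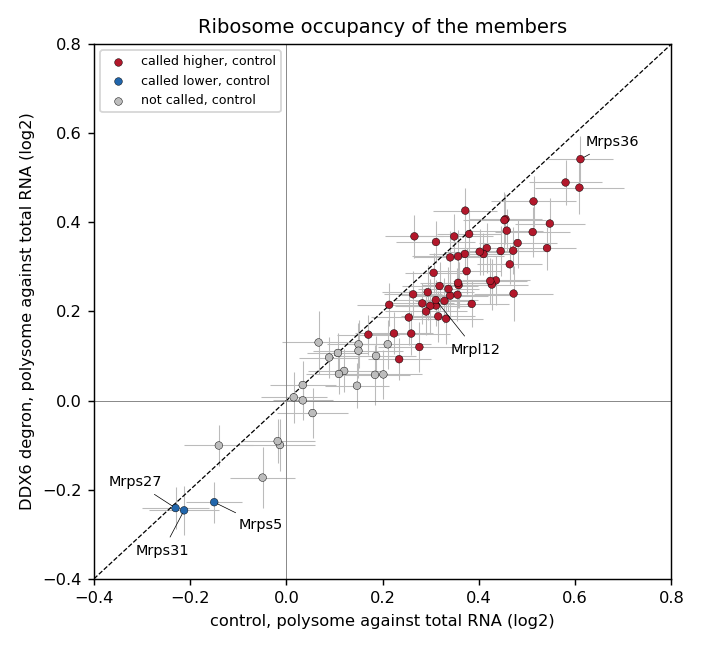
Log2 ratio of polysome to total RNA for each member in control (x axis) and DDX6 degron cells (y axis), with SE bars, coloured by the control's call, and equality as a dashed line. Most points lie to the right of 0 and above it, 53 are called higher in both, and Mrps31, Mrps27 and Mrps5 are called lower in both. The share of all genes called in both is not given.

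The change in occupancy on DDX6 loss was called for 0 of 78 members by edgeR (3 at an unadjusted p under 0.05, as were 5.16% of all genes, and 0 by DESeq2), in a test that called 0% of all genes. The members' log2 differences ran from -0.24 to 0.10 with a median of -0.08, and 7 were above 0. Mrpl12 differed by -0.09 (SE 0.10) and Mrps7 by -0.07 (SE 0.07), at edgeR adjusted p = 0.93 for both. In total RNA the degron changed 0 members by edgeR (1 by DESeq2), where 3.31% of all genes were called. At an unadjusted p under 0.05, 18 members, or 23.1%, and 8.77% of all genes were higher, and 69 of 78 values were above 0 with a median of 0.10. In the 2 settings that follow, the share of all genes called is not given. Without control total replicate 3, 31 members were called higher, and 7 in the fit over all groups. Mrps7 was at 77.4, 83.2 and 84.8 CPM in control and 92.1, 91.5 and 90.5 CPM in degron total RNA (log2 0.15, SE 0.06, edgeR adjusted p = 0.19), and Mrpl12 overlapped (0.11, SE 0.09, edgeR adjusted p = 0.51).

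In polysome RNA 1 member was called, in a comparison that called 4.26% of all genes. Mrpl20 was at 78.9, 79.8 and 79.1 CPM in control and 89.1, 88.4 and 90.7 CPM in degron polysomes, a log2 change of 0.17 (SE 0.04, edgeR adjusted p = 0.029). The number called was 0 without degron polysome replicate 1, 2 or 3 or control polysome replicate 1, 2 and 4 without control polysome replicate 2 and 3, and 0 in the fit over all groups. Mrps7 (0.09, SE 0.05) and Mrpl12 (0.04, SE 0.04) were not called, at edgeR adjusted p = 0.29 and 0.72.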

How the data were processed

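RNA was sequenced from P-body and cytoplasm fractions (20 libraries, and 4 of Ago2 KO cells) and from polysome and total RNA (12 libraries). Per the labels, reads were processed with HISAT2 and featureCounts on mm10 and compared with DESeq2 by the authors. The deposited tables hold estimated counts per gene, which the authors made with HISAT2 and featureCounts for the P-body table and with salmon for the other 2: 17.6 to 25.7% of values were not whole in the P-body table, 5.05 to 6.19% in the polysome table and 11.6 to 13.1% in the Ago2 KO table. The Ago2 KO table, from another pipeline, was never tested against the others. The authors' 10 tables of fold changes and p-values were not used. Mappability and the sharing of reads between overlapping genes by those counters could move single members.

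Counts were rounded, genes with at least 10 reads summed over a comparison's libraries were kept, and edgeR 4.0.16 quasi-likelihood tests with TMM scaling (R 4.3.3) were run over all genes for 18 comparisons, two-sided, with Benjamini-Hochberg adjustment and a threshold of 0.05. The SE is the absolute log2 fold change over the square root of the F statistic. Levels are CPM on library sizes scaled by TMM over a whole table. Samples were grouped by title. Named members were, in each comparison, Mrpl12 and Mrps7 and the called members with the 3 highest and 3 lowest log2 fold changes at a mean of at least 10 CPM, and across comparisons the Mrps18 family and members called in most P-body comparisons or in both directions. Other genes were named only as the highest and lowest called of a list, of which 1 is not reported here. The members and lists were chosen with earlier results of these data known. The code was tested on simulated data. Alternatives were DESeq2 1.42.0, its size factors, edgeR's filterByExpr, no filter, a replicate block, a fit over all groups and leaving out each library, and library totals without TMM, which was added after seeing the data. Per the paper, P-bodies were sorted from a cytoplasmic fraction of which aliquots were kept, and total RNA came from a part of each polysome lysate. The design is therefore paired, but the labels do not say which libraries match. Same-numbered libraries were not treated as pairs, except in the replicate block.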

Additional observations from a re-analysis of the deposited data

Results flagged for a closer look

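The tests of a difference between conditions called members in 2 designs. P-body enrichment in naive minus primed cells was called different for 31 members. The log2 difference was 0.46 for Mrps27, -1.10 for Mrps28, -1.01 for Mrps36 and -0.92 for Mrpl23. P-body enrichment in the day 3 control minus MEFs was called different for 27 members, with log2 differences of -0.59 for Mrpl12, -1.49 for Mrps6, -1.0 for Mrpl51 and -0.93 for Mrpl24. Both designs compare conditions that also differ in culture, and the part of that in the differences cannot be told apart. With 2 or 3 libraries in a group, single libraries were not tested against the rest of their group.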

How the results depend on the processing

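Counts of called members, higher and lower together, stayed within 1.5 times the reported ones in MEFs, in day 3 against MEF cytoplasm and in polysome against total RNA, under every setting tried, but with library totals the lower calls went from 3 to 0 in control polysomes, from 4 to 0 in degron polysomes and from 5 to 1 in day 3 against MEF cytoplasm. Where counts moved further, the cause was not tested. The share of all genes called under these settings, or with libraries left out, is not given. A change among the members therefore cannot be told from one over all genes. Primed P-body against cytoplasm gave 15 with DESeq2 and 10 with all groups in one fit. The day 3 control gave 31 with DESeq2, 25 unfiltered, 3 with the replicate block and 51 with all groups. Ago2 KO gave 6 with DESeq2, 1 with its size factors, 12 unfiltered, 28 with the block and 1 with library totals. Naive P-body against cytoplasm gave 49 with library totals. The naive minus primed difference gave 17 with all groups. The day 3 minus MEF difference gave 43 with DESeq2, 44 unfiltered and 49 with all groups. Knockdown against control cytoplasm gave 12 with all groups. Degron total RNA gave 1 with DESeq2, 1 with filterByExpr, 1 unfiltered and 7 with all groups, and degron polysome RNA 3 unfiltered, 2 with the block and 0 with all groups. Mrps5 in control polysomes changed sign with library totals (0.018, adjusted p = 0.83). The Ago2 KO table holds only its own 2 groups, so no fit over more groups was run there.

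Leaving out 1 library at a time, where the lone sample left in a group of 2 is assumed to vary like the others, gave 0 to 62 called in naive, 14 to 29 in primed, 67 to 74 in MEF, 0 to 71 in day 3 control, 3 to 60 in knockdown and 0 to 43 in Ago2 KO P-bodies, 5 to 52 for naive minus primed, 1 to 62 for day 3 minus MEF, 0 to 9 for knockdown minus control, 3 to 50 for naive against primed, 29 to 61 for naive against MEF, 51 to 54 for day 3 against MEF and 23 to 33 for knockdown against control cytoplasm, 48 to 66 and 55 to 58 for control and degron occupancy, 0 to 0 for their difference, 0 to 31 for degron total and 0 to 4 for degron polysome RNA.

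Same-numbered libraries deviated together with correlations of -0.05 to 0.60 in the conditions with 2 pairs, and of -0.01 to 0.16 (degron) and -0.003 to 0.19 (control) in those with 3, where number 1 of both and number 3 of the control did not correlate best with their own number. The replicate block changed the count by more than 1.5 times only in the comparisons named above.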

Other observations

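Levels per kilobase of transcript differed widely among the members although most of their products enter the ribosome in single copies. The order was not the same in all cells, with 2 libraries per group. In naive cytoplasm Mrpl42 had the highest mean at 179 CPM per kb (168 and 190), followed by Mrps18b at 165 and Mrpl2 at 163, and in primed cytoplasm Mrpl28 at 147 and Mrpl42 at 140 led. In MEF cytoplasm Mrpl33 had the highest mean at 138 CPM per kb (133 and 142), followed by Mrpl28 at 117 and Mrpl20 at 113. At the low end Mrpl32 was at 5.67 in naive and Mrpl47 at 5.96 in MEF cytoplasm. Mrpl12, a protein present in several copies, was at 85.5, 77.1 and 75.8 CPM per kb in naive, primed and MEF cytoplasm. These levels use the longest RefSeq-matched transcript of each gene, so a member with a long, little used form is placed too low.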
